A study of Mus musculus with 12 samples.

Results

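The miRNAs described here are upstream members of the imprinted Dlk1-Dio3 domain, from miR-770 in the Meg3 gene to miR-136 opposite Rtl1. They were chosen by name, as every assay on the panel named miR-127, miR-136, miR-337, miR-431, miR-433, miR-434, miR-493, miR-540, miR-673 or miR-770, with any arm. This gave 24 of 619 miRNA assays. A cycle threshold (Ct, the PCR cycle at which the product is detected, lower for more abundant RNA) below 28 in all 12 samples was found for 15 of the 24, which are among the 335 assays analysed across all samples.

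Hippocampal miRNAs were measured with TaqMan OpenArray real-time PCR in male C57BL/6 mice, in 4 groups of 3 samples. Mice were wt or P2rx7-/-, and within each genotype either control or post-SE. Control mice received vehicle (phosphate-buffered saline) and post-SE mice 0.3 µg of kainic acid, which triggers status epilepticus, in the amygdala. All groups, controls included, then received lorazepam at 6 mg/kg, an anticonvulsant, and the hippocampus on the injected side was taken 8 h after the injection. The labels give an age of 8 weeks, the lower end of the range in the study's methods. P2rx7-/- mice, of the line 6NTac;B6N-P2rx7tm1d(EUCOMM)Wtsi/Ieg, lack exon 2 of the P2X7 receptor gene in all cells from conception, so a developmental effect of the deletion cannot be told apart from the loss of the receptor in the adult. Each sample was 1 pool of 2 hippocampi from different mice, and whether fewer cells of a type or less RNA per cell lies behind a lower level cannot be told apart in such tissue.

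In the Dlk1-Dio3 domain, the protein-coding genes Dlk1, Rtl1 and Dio3 are expressed from the chromosome inherited from the father, while Meg3, the Rtl1 antisense transcript and the miRNAs processed from these long noncoding RNAs come from the mother's copy. miR-127, miR-136, miR-431, miR-433 and miR-434 lie antisense to Rtl1 and match its mRNA perfectly, so that they can direct its cleavage. Each hairpin can yield a mature miRNA from its 5′ side (5p) and its 3′ side (3p), and usually 1 of the 2 arms accumulates. A miRNA recognises its targets mainly through its seed, bases 2 to 8 from the 5′ end.

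All 10 hairpins and their 20 mature arms were found in RefSeq (GRCm38.p6), on the plus strand of chromosome 12, from chr12:109563710-109563731 (miR-770-5p) to chr12:109595366-109595387 (miR-136-3p). These ends span 31.7 kb. In the annotation 1 hairpin, miR-770, lies within Meg3, and the other 9 lie within the span annotated for Rtl1, in the order miR-673, miR-493, miR-337, miR-540, miR-431, miR-433, miR-127, miR-434 and miR-136. The deposited files name no genome build and no assay sequence, so assays were matched to arms by name. Where a name gives no arm, it was taken as the arm not named by the hairpin's other assay, and # marks the star arm, here 3p for miR-136 and miR-431. This could not be settled for the mouse assays named miR-337 and miR-493. The sequences below are shown for the arms the results turn on, first those read at high levels (miR-127-3p, miR-434-3p, both arms of miR-136 and miR-337-5p), then the other arm of miR-337 and last the 5 with large differences between samples, with the seed in capitals.

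mmu-miR-127-3p: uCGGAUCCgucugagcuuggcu
mmu-miR-434-3p: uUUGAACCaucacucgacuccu
mmu-miR-136-5p: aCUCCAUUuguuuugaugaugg
mmu-miR-136-3p: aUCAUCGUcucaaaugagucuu
mmu-miR-337-5p: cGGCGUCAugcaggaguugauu
mmu-miR-337-3p: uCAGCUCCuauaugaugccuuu
mmu-miR-433-3p: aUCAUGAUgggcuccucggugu
mmu-miR-431-3p: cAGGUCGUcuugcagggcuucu
mmu-miR-493-3p: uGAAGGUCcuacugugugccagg
mmu-miR-770-5p: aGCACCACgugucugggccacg
mmu-miR-770-3p: cGUGGGCCugacguggagcugg

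The 20 arms have 20 different seeds, so no pair of them shares one. With all mature mouse miRNAs of the RefSeq table, 2 seeds are shared, that of miR-673-5p (UCACAGC) with miR-6985-3p and that of miR-540-3p (GGUCAGA) with miR-6915-5p. The arms of miR-136 are the poorest in G and C (36.4%) and miR-770-3p is the richest (72.7%).

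Across the series, 470 to 538 of the miRNA assays gave a Ct in a sample. One library stood apart: wt control replicate 1 had Spearman correlations of 0.66 to 0.737 with the other 11 samples over the assays analysed, whereas every other sample reached at least 0.909 with one of the rest. It also carried the fewest Cts (470). In wt control replicate 1, 6 of the 15 analysed assays (40%) lay over 2 log2 units from the median of the other samples, and 72 of all 335 (21.5%). No other sample had more than 2 of the 15 that far away. RNA degradation was not assessed, and why this library differs was not tested, so comparisons with wt control are given with and without it. Of the markers of neurons, miR-128a had a Ct in all samples and miR-124a in 11, miR-138 in 10 and miR-9 in 4. Where read, their median Cts were 14.4, 14.6, 10.6 and 10.5, which are strong reads. The number of samples with a Ct is thus not a measure of abundance, and why Cts are missing was not tested. Of the markers of microglia and blood, 4 of 5 assays had a Ct in all samples, and of those of liver and muscle 2 of 5 did. The P2rx7 mRNA itself is not measured by these assays.

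Levels are given as the mean Ct of the sample over its analysed assays minus the Ct of the assay, on the log2 scale, so that 1 unit is a doubling and 0 is the panel's mean. Because amplification differs between assays, levels of different assays describe the readout and are not a measure of molecules. hsa-miR-127, the 3p arm and the most strongly read of the 15, had a median Ct of 12.8 and ranked 14 of 335. It was at 6.30, 5.86 and 5.81 in wt control, 5.99, 5.95 and 5.22 in P2rx7-/- control, 6.19, 6.40 and 6.01 in wt post-SE and 5.74, 6.29 and 4.70 in P2rx7-/- post-SE. The groups overlapped, and the lowest level was that of P2rx7-/- post-SE replicate 3. hsa-miR-127-5p, the other arm, had a median Ct of 23.0 in 11 samples and no Ct in wt post-SE replicate 1.

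mmu-miR-434-3p, an arm antisense to Rtl1, had the lowest median Ct of the 24 (12.4) in the 11 samples where it was read, and no Ct in wt control replicate 1. Its levels in the fit without that sample were 6.76 and 6.36 in wt control, 4.36, 6.63 and 6.50 in P2rx7-/- control, 6.20, 6.77 and 6.50 in wt post-SE and 6.01, 6.36 and 6.13 in P2rx7-/- post-SE. All samples but P2rx7-/- control replicate 1, at 4.36, lay within 1 unit of each other. Against the remaining 2 wt control samples its average fold change (± SD, n = 3) was 0.742 ± 0.456 in P2rx7-/- control and 0.969 ± 0.191 in wt post-SE. In P2rx7-/- post-SE it was 0.765 ± 0.0947, with each sample below both of those (limma adjusted p = 0.996).

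The arms of miR-136 were read at similar levels by the mouse assay for miR-136 and the human-named assay for miR-136#. mmu-miR-136 was at 4.33, 3.77 and 3.65 in wt control, 4.32, 4.15 and 3.93 in P2rx7-/- control, 2.99, 3.69 and 3.82 in wt post-SE and 3.96, 3.21 and 4.08 in P2rx7-/- post-SE. Each wt post-SE sample was below every P2rx7-/- control sample, and the other pairs of a post-SE with a control group overlapped. hsa-miR-136#, the 3p arm, ranged from 2.92 in wt post-SE replicate 2 to 4.47 in P2rx7-/- post-SE replicate 3. hsa-miR-136 was read much lower, at -3.58, 0.18 and -0.40 in wt control, -2.86, -0.20 and -2.35 in P2rx7-/- control, -1.69, -3.03 and -4.65 in wt post-SE and -0.56, -1.80 and -2.06 in P2rx7-/- post-SE. Its highest samples were wt control replicate 2, P2rx7-/- control replicate 2 and wt control replicate 3, and wt control replicate 1 was among its lowest.

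miR-337 was read by 3 assays. mmu-miR-337-5p was at 3.22, 2.25 and 2.50 in wt control, 2.39, 2.13 and 3.39 in P2rx7-/- control, 2.21, 2.64 and 2.56 in wt post-SE and 2.08, 2.38 and 2.27 in P2rx7-/- post-SE. mmu-miR-337-3p was at -0.51, -1.10 and -1.0 in wt control, -1.02, -0.93 and 0.41 in P2rx7-/- control, -1.41, -1.13 and -1.0 in wt post-SE and -1.59, -1.19 and -1.72 in P2rx7-/- post-SE. The same samples, wt control replicate 1 and P2rx7-/- control replicate 3, were the highest for both arms, and each P2rx7-/- post-SE sample was below every wt control sample for the 3p arm. mmu-miR-337, whose name gives no arm, ranged only from 0.74 to 1.62.

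A further set of arms was read at intermediate levels. hsa-miR-431 was at 3.84 in wt control replicate 1 and between 1.30 and 2.54 elsewhere. hsa-miR-433, also antisense to Rtl1, was at -3.64 in wt control replicate 1 and between 1.41 and 3.33 elsewhere. mmu-miR-434-5p was at -0.59 in that sample and between 0.08 and 1.46 elsewhere, while mmu-miR-673-3p, with no Ct there, ranged from -0.84 to 0.84 over the other 11.

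Several arms read at low levels differed widely between samples of a group. hsa-miR-431# was at 2.51, -5.68 and -2.35 in wt control, -7.40, -5.23 and -5.87 in P2rx7-/- control, -7.28, -4.62 and -6.61 in wt post-SE and -4.85, -2.66 and -5.62 in P2rx7-/- post-SE. hsa-miR-493-3p was at 5.82, -2.43 and -2.91 in wt control, -5.06, -3.07 and -4.67 in P2rx7-/- control, -3.88, -2.56 and -4.36 in wt post-SE and -4.15, -1.61 and -3.82 in P2rx7-/- post-SE. mmu-miR-770-5p was at 2.35, -4.22 and -1.92 in wt control, -3.97, -2.82 and -4.63 in P2rx7-/- control, -6.29, -2.22 and -4.16 in wt post-SE and -4.32, -5.10 and -5.66 in P2rx7-/- post-SE. In all 3, wt control replicate 1 was the highest sample by over 4 units. mmu-miR-770-3p had its high value elsewhere, at 3.37 in P2rx7-/- post-SE replicate 1, with -2.22 and -2.60 in the other 2 of that group, -5.52, -2.94 and -2.23 in wt control, -5.55, -3.92 and -3.28 in P2rx7-/- control and -4.59, -1.89 and -3.27 in wt post-SE. mmu-miR-540 was at -0.87 in wt control replicate 1 and between -5.24 and -3.45 in the others. The plot of levels by sample shows these 17 assays side by side.

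**Figure D1:**
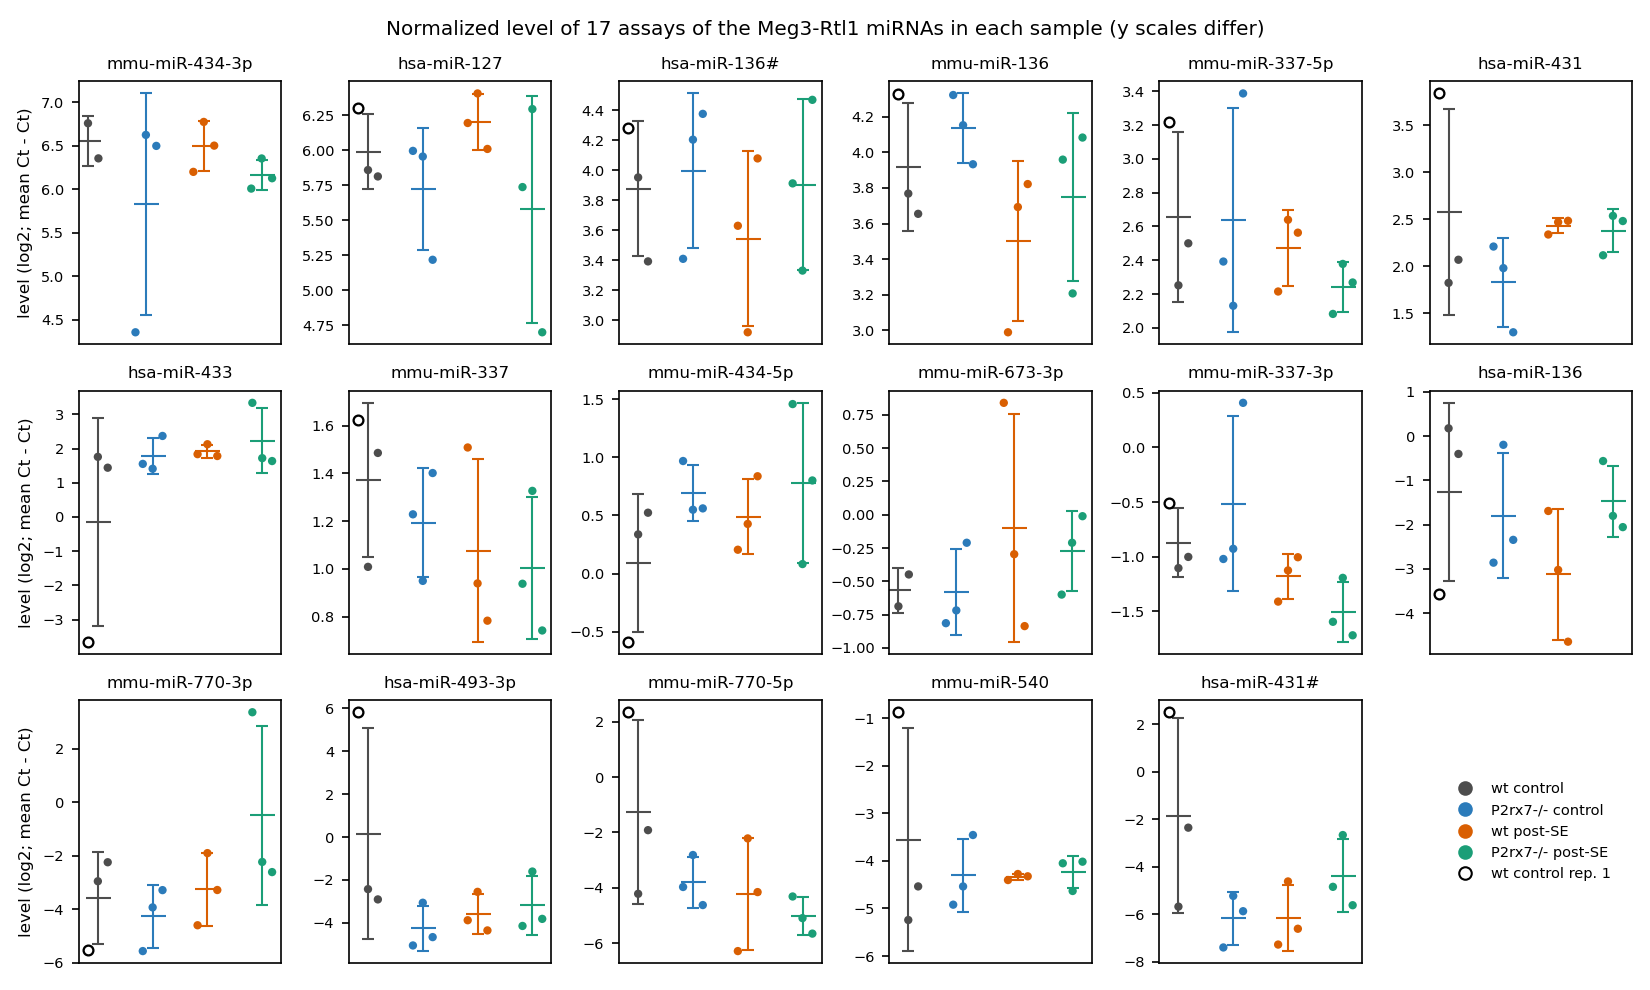
Normalized level (log2, mean Ct of the sample minus Ct) of each assay in each sample, by group, with the mean and SD of each group as a bar; the open circle is wt control replicate 1. mmu-miR-434-3p and mmu-miR-673-3p have no Ct in that sample and are scaled over the assays read in all of the other 11. The abundant arms in the top row span about 1 to 3 units, whereas hsa-miR-493-3p and hsa-miR-431# span over 9 units, with wt control replicate 1 highest.

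Over the 15 assays the median SD within groups was 0.61, against 0.64 over all 335. It ranged from 0.31 (mmu-miR-337) to 2.65 (hsa-miR-493-3p). Without wt control replicate 1 it was 0.52 over 17 assays of these miRNAs and 0.55 over all assays read in the other 11 samples. The sample lay 9.64 log2 units above the median of the other 11 for hsa-miR-493-3p, 8.13 for hsa-miR-431#, 6.57 for mmu-miR-770-5p and 3.53 for mmu-miR-540. Its difference from that median was -5.40 for hsa-miR-433. For 9 of the 15 assays it lay within 2 units of that median, between -1.77 for hsa-miR-136 and 1.63 for hsa-miR-431.

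**Figure D2:**
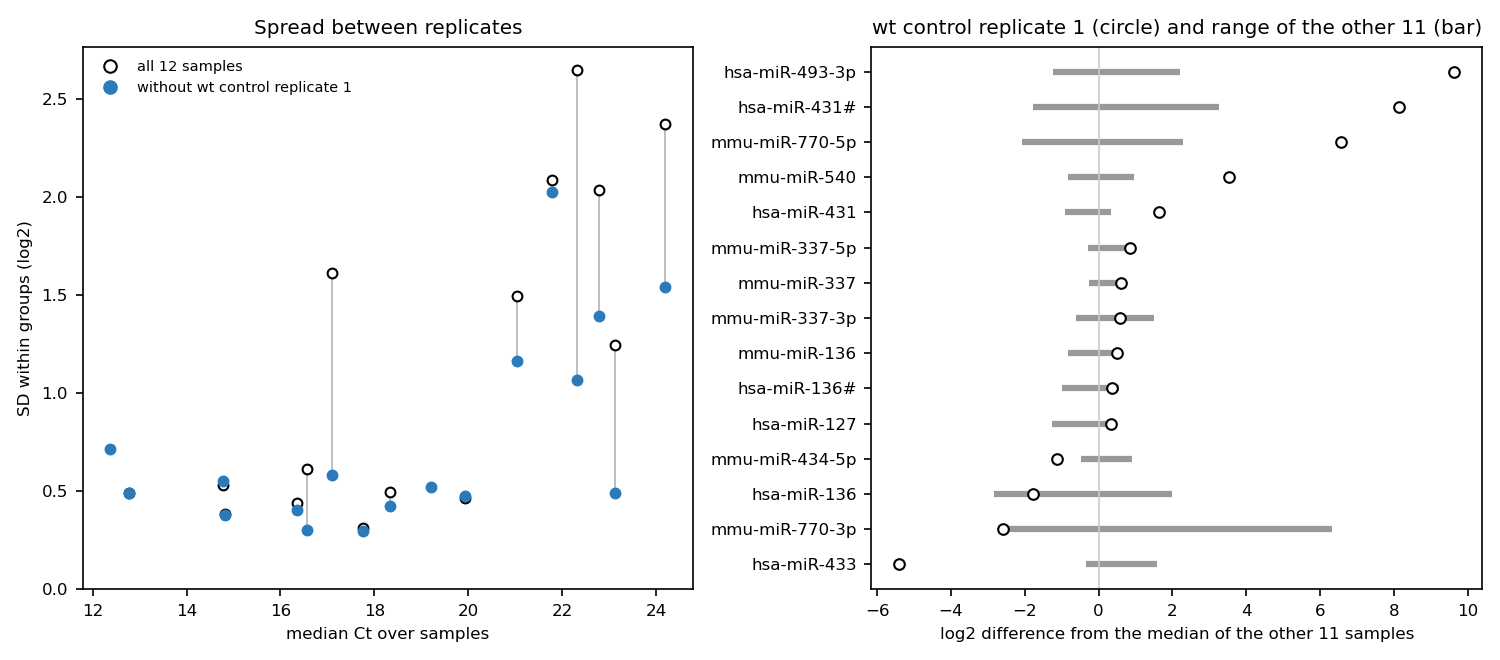
Left, SD within groups (log2) against the median Ct of each assay, for all 12 samples (open circles) and without wt control replicate 1 (filled). Right, the log2 difference of wt control replicate 1 (circle) from the median of the other 11 samples, with the range of those 11 as a bar. All assays with a median Ct below 17 have an SD below 1, and in the right panel wt control replicate 1 lies farthest from the others for hsa-miR-493-3p, hsa-miR-431#, mmu-miR-770-5p and hsa-miR-433.

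Of the 9 assays without a Ct in all samples, 5 were missing in 1 sample. Besides mmu-miR-434-3p, mmu-miR-673-3p and hsa-miR-127-5p these were mmu-miR-433-5p and mmu-miR-540-5p, both missing in wt post-SE replicate 2. mmu-miR-540-5p had a Ct of 10.5 in wt control replicate 1 and 18.7 to 23.1 in the other 10 samples with a value. mmu-miR-136# was read in 10 samples, mmu-miR-673 in 9 (Ct 15.5 to 20.6, none in wt control replicate 1), mmu-miR-493 in 7 and rno-miR-673 in 5.

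Assays that name the same miRNA were set side by side. Where both gave a Ct, the level of hsa-miR-136 minus that of mmu-miR-136 was -8.47 to -3.59 log2 units, and the Pearson correlation of their levels was -0.17 over 12 samples and -0.04 over the 11 without wt control replicate 1. hsa-miR-136# was read 6.52 to 11.1 units above mmu-miR-136# over 10 samples, with a correlation of -0.66. mmu-miR-337 was 0.99 to 2.92 units above mmu-miR-337-3p, with a correlation of 0.46. The assays that share the name miR-136 thus did not rank the samples alike, and a value for this miRNA depends on the assay taken.

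Among the arms of 1 hairpin, those of miR-337 had the highest Pearson correlation over the 11 samples, as a description in which both assays share each library and its scaling. mmu-miR-337-5p and mmu-miR-337-3p had a Pearson correlation of 0.86 over 12 samples and 0.88 over 11, where the Spearman correlation was 0.47. Between mmu-miR-136 and hsa-miR-136# it was 0.47 and 0.41, with a higher Spearman correlation of 0.55. Between mmu-miR-770-5p and mmu-miR-770-3p it was -0.24 and 0.10, and between hsa-miR-431 and hsa-miR-431# 0.69 and 0.09. For miR-540, it was 0.83 with wt control replicate 1 and -0.10 over the 10 other samples. Over all pairs of the 17 assays read in the 11 samples, the median correlation was -0.01, with a range from -0.77 (hsa-miR-127 with hsa-miR-136#) to 0.89 (the arms of miR-337). Over all pairs of assays on the panel read there it was -0.0043.

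**Figure D3:**
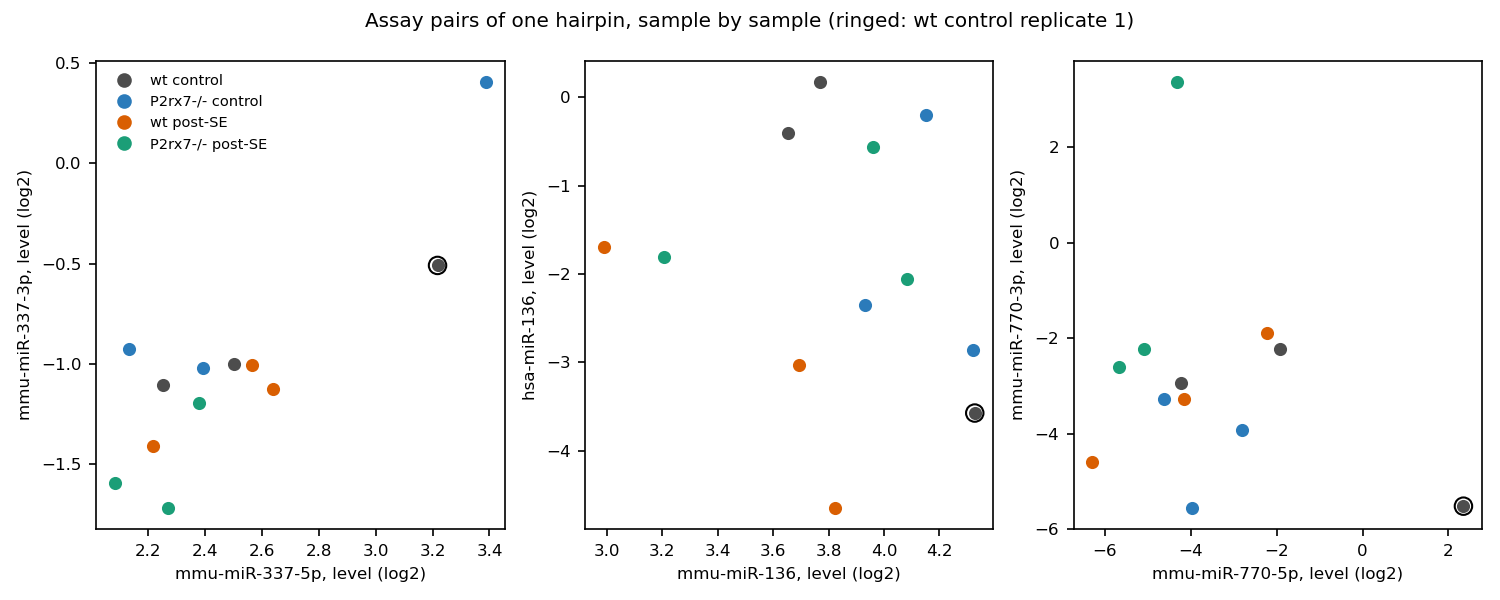
Normalized levels (log2) of 2 assays of 1 hairpin in each of the 12 samples, coloured by group, with wt control replicate 1 ringed: the arms of miR-337, the mouse and human-named assays for miR-136, and the arms of miR-770. The arms of miR-337 have a Pearson correlation of 0.86 and share their 2 highest samples, wt control replicate 1 and P2rx7-/- control replicate 3. Their Spearman correlation without wt control replicate 1 was 0.47. The other pairs have Pearson correlations of -0.17 and -0.24.

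To compare groups, a fold change of each sample was taken relative to the mean level of the reference group. An assay was called when the average of the 3 fold changes was above 1.5 or below 0.6, the rule of the study. In each comparison more assays were called here than the study reports. The counts given below are thus not the study's own calls, and why they differ was not tested. The question behind the comparisons is whether hippocampal miRNAs differ without the P2X7 receptor, before and after status epilepticus. Each was also tested with limma across all 335 assays with Benjamini-Hochberg adjustment, and by a two-sided exact permutation test, which cannot go below 0.1 with 3 samples against 3. By limma no assay of these miRNAs had an adjusted p below 0.05 in any of 8 contrasts, and neither had any of the 335 (0%). The lowest adjusted p of the 15 was 0.615. Unadjusted, 8 of 120 tests of these miRNAs were below 0.05 (6.67%), beside 94 of 2680 over all assays (3.51%). The 8 contrasts reuse the same 4 groups, so these tests are not independent and the 2 shares cannot be compared as if they were. hsa-miR-431# entered through both P2rx7-/- control and wt post-SE against wt control, and again through the interaction of genotype and treatment.

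In P2rx7-/- control against wt control, 5 of the 15 were called, 2 up and 3 down, beside 36.7% of all 335. Their median log2 difference was -0.27, and that of all assays -0.02. With snoRNA135 as the reference RNA in place of the mean Ct, the median of all assays moved up by 0.46 and that of the 15 to 0.19, and 6 of the 15 lay above the median of all under either scaling. Groups did not overlap for 2 of the 15, beside 14% of all.

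The assays called down were those of hsa-miR-493-3p, hsa-miR-431# and mmu-miR-770-5p. For hsa-miR-493-3p the 3 wt control samples were at 50.6, 0.166 and 0.119 of their own mean level, and the P2rx7-/- control samples at 0.0268, 0.107 and 0.0352. The average was 0.0563 ± 0.044 (SD, n = 3; exact permutation p = 0.1; limma log2 difference -4.43 ± 1.93 SE, adjusted p = 0.615). Without wt control replicate 1 the average was 0.404 ± 0.315 and each P2rx7-/- control sample was still below the remaining 2. For hsa-miR-431# the average was 0.0593 ± 0.0372 (exact permutation p = 0.2) and without that sample 0.27 ± 0.169. For mmu-miR-770-5p it was 0.197 ± 0.128 (exact permutation p = 0.3) and 0.694 ± 0.448, no longer past the rule.

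Those called up were hsa-miR-433 and mmu-miR-434-5p, both antisense to Rtl1. hsa-miR-433 had fold changes of 3.25, 2.95 and 5.72, an average of 3.97 ± 1.52 (SD, n = 3; exact permutation p = 0.5; limma adjusted p = 0.665). Since wt control replicate 1 was at 0.0887 and the other 2 at 3.75 and 3.01 on that scale, 2 of the P2rx7-/- samples lay near the latter and 1 above both. Without that sample the average was 1.20 ± 0.466. mmu-miR-434-5p was at 1.84, 1.37 and 1.38 against 0.625, 1.19 and 1.35, so that the groups did not overlap (average 1.53 ± 0.264; exact permutation p = 0.1; limma adjusted p = 0.668). Without wt control replicate 1 the average was 1.22 ± 0.207.

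In that fit, 6 of 17 were called, beside 25.9% of all assays read in the 11 samples. These were hsa-miR-493-3p, hsa-miR-431#, mmu-miR-770-3p (0.386 ± 0.251) and hsa-miR-136 (0.439 ± 0.444) down, and mmu-miR-540 (1.67 ± 0.942) and mmu-miR-337-3p (1.64 ± 0.999) up. The groups did not overlap for 4 of the 17, namely hsa-miR-493-3p, mmu-miR-770-3p, mmu-miR-434-5p and mmu-miR-136. For mmu-miR-136 the P2rx7-/- control samples were at 1.54, 1.37 and 1.18 (average 1.36 ± 0.176). Over all assays read in the 11 samples, 99 (25.9%) were called and 86 had groups that did not overlap. Such separation from the 2 remaining controls thus also occurred outside these miRNAs, and whether it was more frequent among them was not tested. mmu-miR-540 had been at 0.653 with all samples and so turned direction. The median log2 difference of the 17 was -0.04, and 0.0026 over all assays. The lowest limma adjusted p of the 17 over the 8 contrasts was 0.839.

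In wt post-SE against wt control, 7 of 15 were called, beside 35.8% of all, 2 up and 5 down. The median log2 difference was -0.31, and -0.09 over all assays. Groups did not overlap for 1 of the 15 (hsa-miR-433), beside 11%. hsa-miR-433 had an average of 4.20 ± 0.556 (SD, n = 3; exact permutation p = 0.1; limma adjusted p = 0.664), and 1.23 ± 0.169 without wt control replicate 1.

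The 5 called down were hsa-miR-431# (0.0685 ± 0.0673; exact permutation p = 0.2), hsa-miR-493-3p (0.0854 ± 0.0582; exact p = 0.2), mmu-miR-770-5p (0.227 ± 0.256; exact p = 0.3), hsa-miR-136 (0.379 ± 0.332; exact p = 0.3) and mmu-miR-540 (0.581 ± 0.0257; exact p = 1.0). Their limma adjusted p-values were 0.664, 0.664, 0.664, 0.664 and 0.848. Without wt control replicate 1 the averages were 0.306, 0.598, 0.786, 0.165 and 1.45, so that mmu-miR-540 turned from lower to higher and mmu-miR-770-5p was not called. mmu-miR-770-3p, called up at 1.64 ± 1.39 (exact permutation p = 0.8; limma adjusted p = 0.992), was at 0.822 ± 0.703 without it.

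hsa-miR-136 went the other way, with a larger difference without wt control replicate 1. Each wt post-SE sample, at 0.319, 0.131 and 0.0432 of the mean of the remaining 2 wt control samples, was below both of those (limma log2 difference -3.04 ± 0.939 SE, unadjusted p = 0.0093, adjusted p = 1.00). The mouse assay of the same name, mmu-miR-136, had an average of 0.879 ± 0.265 in that comparison and its groups overlapped. With that control sample left out, 4 of 17 were called, beside 22.5%, and mmu-miR-673-3p, which it had kept out, was among them at 1.56 ± 0.962 (limma adjusted p = 1.00). Each wt post-SE sample was then above both remaining controls for hsa-miR-127 (1.27 ± 0.174), hsa-miR-431 (1.38 ± 0.108), hsa-miR-433 and mmu-miR-540. With hsa-miR-136, groups did not overlap for 5 of the 17. Over all assays read in the 11 samples, 86 (22.5%) were called and 69 had groups that did not overlap. Such separation thus also occurred outside these miRNAs. Whether it was more frequent among them was not tested. The median was -0.15, and 0.0083 over all assays.

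In P2rx7-/- post-SE against wt control, 6 of 15 were called, beside 33.7%, 3 up and 3 down, with a median log2 difference of -0.37 and of -0.09 over all assays. With snoRNA135 the medians were 0.07 and 0.35. The 3 control samples are those of the comparisons above. Groups did not overlap for 2 of the 15, beside 10.1%. mmu-miR-770-5p was at 0.12, 0.07 and 0.0475 of the wt control mean, an average of 0.0793 ± 0.0374 (SD, n = 3; exact permutation p = 0.1; limma log2 difference -3.76 ± 1.49 SE, adjusted p = 0.712). It was at 0.269 ± 0.118 without wt control replicate 1, still with each sample below the remaining 2. mmu-miR-337-3p, not called, was at 0.606, 0.8 and 0.556 against 1.29, 0.851 and 0.914 (average 0.654 ± 0.129; exact permutation p = 0.1; limma adjusted p = 0.712), and at 0.727 ± 0.143 without that sample.

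hsa-miR-431# averaged 0.254 ± 0.271 (exact permutation p = 0.5) and hsa-miR-493-3p 0.136 ± 0.136 (exact p = 0.3). With that control sample left out they averaged 1.12 ± 1.20 and 0.949 ± 0.954, and neither was called. Of those called up, hsa-miR-433 averaged 6.09 ± 4.42 (exact permutation p = 0.3) and mmu-miR-434-5p 1.74 ± 0.799 (exact p = 0.3), against 1.75 ± 1.21 and 1.34 ± 0.581 without that sample. For all 4, the limma adjusted p was 0.712. mmu-miR-770-3p had fold changes of 123, 2.54 and 1.95, and its average of 42.4 ± 69.6 rested on P2rx7-/- post-SE replicate 1 (exact permutation p = 0.2; limma adjusted p = 0.712). It was 2.25 without that replicate and 20.4 ± 33.4 without wt control replicate 1. In the fit without wt control replicate 1, 5 of 17 were called, beside 21.7%, with a median of -0.16 and of -0.02 over all assays. Besides mmu-miR-770-3p, hsa-miR-433 and mmu-miR-770-5p these were mmu-miR-540 (1.58 ± 0.356, from 0.635 with all samples) and hsa-miR-136. The latter was at 0.693, 0.304 and 0.263 in P2rx7-/- post-SE, each below both remaining controls (0.42 ± 0.237; limma adjusted p = 0.996). In that fit, groups did not overlap for 4 of the 17. Over all assays read in the 11 samples, 83 (21.7%) were called and 61 had groups that did not overlap.

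In P2rx7-/- post-SE against wt post-SE, a comparison without wt control, 4 of 15 were called, all up, beside 21.5% of all. The median log2 difference was 0.25 and that of all assays -0.01. Groups overlapped for all 15, whereas they did not for 5.67% of all. mmu-miR-770-3p had fold changes of 98.7, 2.04 and 1.57, an average of 34.1 ± 55.9 (SD, n = 3; exact permutation p = 0.3; limma log2 difference 2.77 ± 1.52 SE, adjusted p = 0.999). Without P2rx7-/- post-SE replicate 1 its average was 1.80, still past the rule. hsa-miR-431# had 2.50, 11.4 and 1.46 (5.11 ± 5.44; exact permutation p = 0.3), hsa-miR-136 had 5.89, 2.49 and 2.09 (3.49 ± 2.09; exact p = 0.3) and hsa-miR-493-3p had 0.683, 3.97 and 0.859 (1.84 ± 1.85; exact p = 0.6). Their limma adjusted p was 0.999. The average of hsa-miR-493-3p rested on P2rx7-/- post-SE replicate 2 and was 0.781 without it. Leaving out wt control replicate 1, which is in neither group here, gave 4 of 17, beside 22%, and a median of 0.10. It changed which assays were read, the normalizer and the spread that limma shares over the 4 groups. limma's SE for hsa-miR-493-3p in this comparison was 1.93 log2 units with that sample and 0.775 without it.

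Some assays with a small spread within groups, most of them read at a high level, had values near 1 in all 4 comparisons. A small spread itself favours such values. It did not ensure them: mmu-miR-434-5p, with a within-group SD of 0.50 beside 0.49 for hsa-miR-127, was called up in both P2rx7-/- groups against wt control. Average fold changes were 0.714 to 1.17 for hsa-miR-127, 0.837 to 1.35 for hsa-miR-136#, 0.773 to 1.23 for mmu-miR-136, 0.753 to 1.06 for mmu-miR-337-5p and 0.785 to 0.963 for mmu-miR-337, and none was called. Without wt control replicate 1 the ranges were 0.709 to 1.27, 0.948 to 1.36, 0.879 to 1.36, 0.856 to 1.30 and 0.839 to 0.981, and mmu-miR-337-5p in wt post-SE (0.888 to 1.06) and mmu-miR-136 in P2rx7-/- post-SE (0.921 to 1.04) passed from below to above the wt control. hsa-miR-431, at 0.616, 0.904, 0.878 and 0.972 in the 4 comparisons, moved to 0.962, 1.38, 1.34 and 0.974, and so turned direction in both post-SE groups against wt control. These ranges do not show that the levels were equal: limma's SE for hsa-miR-127 was 0.417 log2 units in each comparison.

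**Figure D4:**
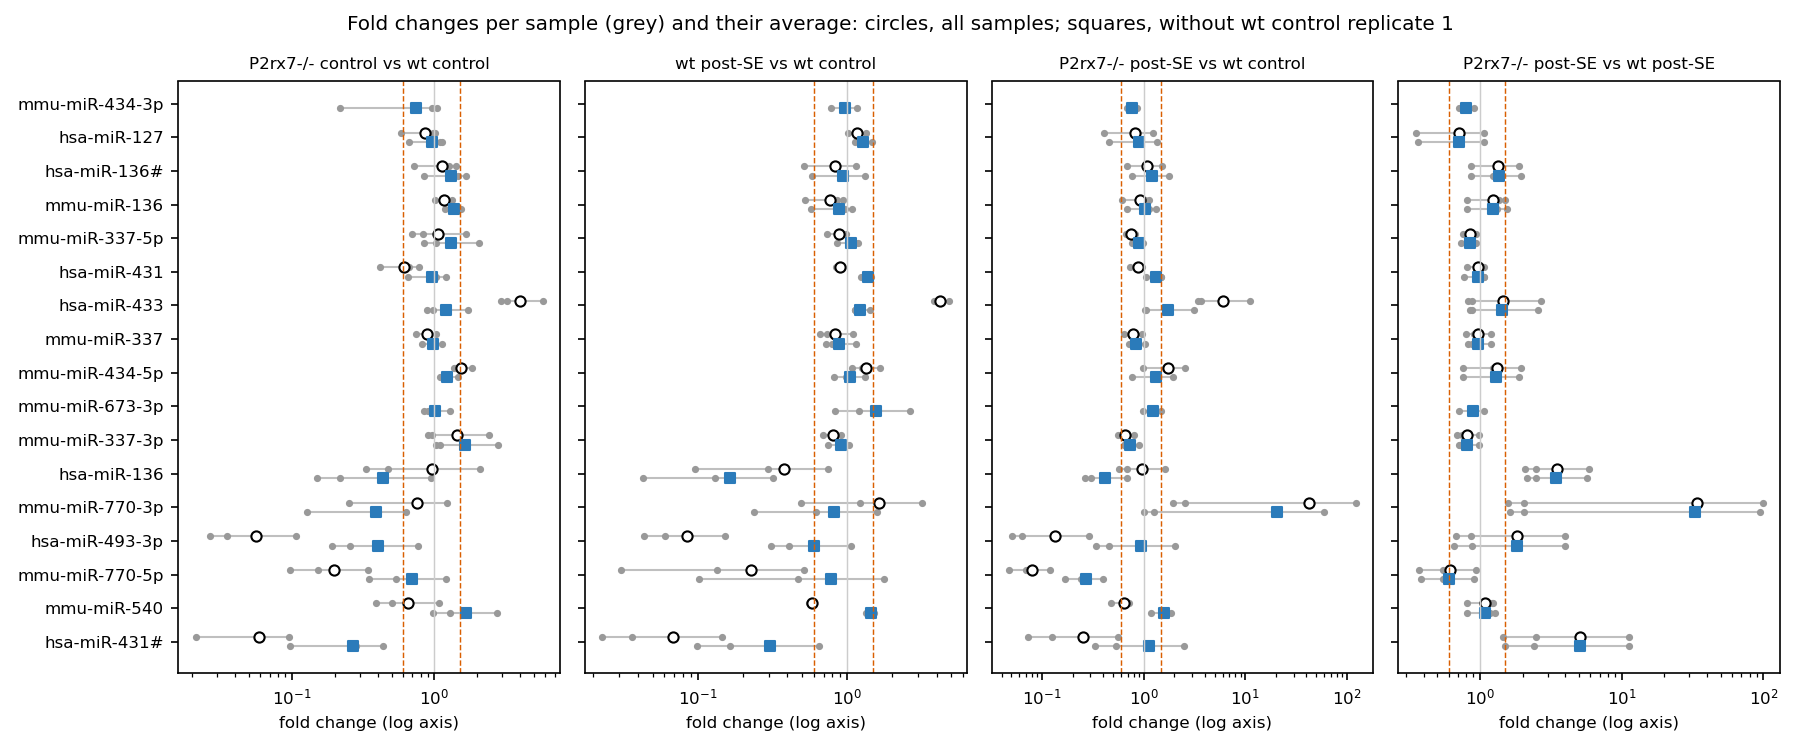
Fold change of each of the 3 samples (grey points, joined by a line) and their average, on a log axis, in the 4 comparisons: circles, all samples; squares, without wt control replicate 1; dashed lines, 0.6 and 1.5. Assays are ordered by level. The arms of the highest level lie near 1, hsa-miR-493-3p, hsa-miR-431# and hsa-miR-433 shift with the 1 control sample, and mmu-miR-770-3p reaches 34.1 in P2rx7-/- post-SE against wt post-SE through 1 sample.

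Status epilepticus within P2rx7-/- mice was a further contrast. mmu-miR-337-3p was lower in P2rx7-/- post-SE than in P2rx7-/- control by a limma log2 difference of -0.99 ± 0.401 SE and mmu-miR-770-3p was higher by 3.77 ± 1.52 SE (unadjusted p = 0.033 for each, adjusted p = 0.998). In the contrast of post-SE with control averaged over genotypes, mmu-miR-337-3p differed by -0.65 ± 0.283 SE (limma unadjusted p = 0.045, adjusted p = 0.829). For mmu-miR-337-3p the highest sample was P2rx7-/- control replicate 3, at 0.41. For mmu-miR-770-3p it was P2rx7-/- post-SE replicate 1, at 3.37. The other 2 of that group were at -2.22 and -2.60, and P2rx7-/- control at -5.55, -3.92 and -3.28. For hsa-miR-136 without wt control replicate 1, the interaction of genotype and treatment was 3.32 ± 1.26 SE (limma unadjusted p = 0.026, adjusted p = 0.983), and with all samples 2.18 ± 1.56 SE (unadjusted p = 0.191, adjusted p = 0.851).

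The miRNAs were also split by name. The first set was miR-127, miR-136, miR-431, miR-433 and miR-434, given above as antisense to Rtl1. Its 8 analysed assays had median log2 differences of -0.07, -0.24, -0.18 and 0.30 in the 4 comparisons as ordered above. The annotated Rtl1 span also holds miR-493, miR-337 and miR-540, so the split does not follow that annotation. The 7 of miR-770, miR-493, miR-337 and miR-540 had -0.68, -0.31, -0.63 and -0.07. In the fit without wt control replicate 1, with 9 and 8 assays, the medians were -0.10, -0.07, 0.0098 and 0.29 against -0.03, -0.18, -0.22 and -0.13, so that most of the gap in P2rx7-/- control against wt control was gone. The difference between these sets was not tested. Of 63 assays of other Dlk1-Dio3 miRNAs, listed by number with their positions not looked up, 45 were analysed, with medians of -0.05, -0.0019, -0.06 and -0.10. Of these 45, the rule called 13, 14, 10 and 6, with 6, 11, 5 and 5 up, and none had a limma adjusted p below 0.05 (1, 1, 0 and 0 with an unadjusted p below 0.05). With wt control replicate 1 left out, 49 were analysed, with medians of 0.03, 0.05, -0.04 and -0.10, and 10, 11, 9 and 7 were called.

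Outside these miRNAs, the assays most like the mean of the 15 over the 11 samples without wt control replicate 1 were hsa-miR-224 (Pearson 0.70, Spearman 0.54), hsa-miR-448 (0.69 and 0.54) and hsa-miR-30d# (0.69 and 0.48). They were the highest of all other assays by choice. Without the 2 samples farthest from the median of that mean, the Pearson values were 0.20, -0.02 and 0.17, so each rests on those samples.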

How the data were processed

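Per the labels, total RNA (1 µg per sample) was reverse transcribed, pre-amplified and run on OpenArray plates. The authors deposited Ct values, another kind of unit than counts, with no normalization, and only Cts of at most 28 appear. Software for the Ct calls is not given in the sources used here. A second deposited table of fold changes was not used. Samples were assigned by name, and 0 columns were left over. Assays with a Ct below 28 in all samples were kept, and the mean Ct of those 335 assays was the normalizer. limma 3.58.1 (R 4.3.3) was fitted on the log2 levels with the 4 groups in 1 model, with Benjamini-Hochberg adjustment over all assays. Scripts used Python 3.11.15 and scipy 1.17.1 and were tested on simulated data. Every assay of these miRNAs is named, with fold changes for those called or with groups that do not overlap with all samples. Members, lists and rules were chosen with earlier results of these data known. The limma p-values set a difference against the spread between pools, 3 per group. That spread was estimated over all 4 groups, with information shared across assays. Alternatives were other normalizers, a Ct limit of 26, at least 2 values in every group, leaving out each sample, a replicate block, array weights, a geometric mean and the two-group test of the methods.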

Additional observations from a re-analysis of the deposited data

Results flagged for a closer look

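For 3 assays every wt post-SE sample moved one way from the mean of the wt control. For the same assays every P2rx7-/- post-SE sample moved the opposite way from the mean of the P2rx7-/- control. These assays were picked by this rule from the same values, which favours large interactions among them. How many assays of the whole panel meet the rule was not determined, so it cannot be told whether 3 is more than the panel shows. hsa-miR-431# differed by -4.33 log2 units in wt and 1.79 in P2rx7-/-, hsa-miR-493-3p by -3.76 and 1.07, and hsa-miR-431 by -0.15 and 0.55. In limma the interaction of genotype and treatment was 6.12 ± 2.44 SE, 4.83 ± 2.72 and 0.70 ± 0.697, with an adjusted p of 0.851 for each. Without wt control replicate 1, the interactions were 3.93 ± 1.64, 1.99 ± 1.16 and 0.05 ± 0.468, with limma adjusted p-values of 0.983, 0.983 and 0.991. The wt post-SE samples were then at 0.0996, 0.651 and 0.166 of the wt control mean for hsa-miR-431#. They were at 0.412, 1.07 and 0.311 for hsa-miR-493-3p and at 1.25, 1.42 and 1.45 for hsa-miR-431. The opposite movement from the group means thus held in every sample only for hsa-miR-431#. Its 2 remaining wt control samples were far apart, at 0.317 and 3.15 of their mean. wt post-SE replicate 2, at 0.651, lay above wt control replicate 2, so those groups overlapped.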

How the results depend on the processing

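No assay of these miRNAs reached a limma adjusted p below 0.05 in any of the 8 contrasts under any alternative run. With the replicate block the count was likewise 0. Replicate numbers did not pair the samples: deviations of samples with the same number correlated between -0.227 and 0.277 over 18 pairs. Counts called by the fold change rule (5, 7, 6 and 4 in the order of the report) were 8 and 7 with snoRNA135 in the first and last comparison. With at least 2 values in every group, which adds assays, they were 9, 10, 10 and 7. Leaving out each sample gave 5 to 8, 4 to 8, 5 to 8 and 4 to 7, with the 4 of wt post-SE against wt control coming without wt control replicate 1. With the two-group test of the methods at an unadjusted p below 0.05 added, each was 0. The median log2 difference moved with snoRNA135 to 0.19, -0.11, 0.068 and 0.49, so that both comparisons of a P2rx7-/- group with wt control changed sign. It was -0.53 with at least 2 values in every group in the first comparison, and -0.24 with the median Ct and -0.28 with a Ct limit of 26 in P2rx7-/- post-SE against wt control. Leaving out each sample gave -0.42 to -0.027, -0.48 to -0.15, -0.55 to -0.16 and 0.0053 to 0.32. Among the fold changes that were called, those that changed direction did so when 1 sample was left out: mmu-miR-540 (0.323 to 1.45) and mmu-miR-770-3p (0.822 to 2.60) in wt post-SE, hsa-miR-431# in P2rx7-/- post-SE against wt control (0.0672 to 1.12) and hsa-miR-493-3p in P2rx7-/- post-SE against wt post-SE (0.781 to 2.62). Over all 15 assays and 4 comparisons, 9 of 60 average fold changes changed direction without wt control replicate 1, mmu-miR-540 and hsa-miR-431 in several comparisons. The cause was not tested. Groups of 3 cannot give an exact permutation p below 0.1.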
